A study of Mus musculus with 8 samples.

Results

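The Hao2-Cyp2f2 spots are positions on Visium slides of mouse large intestine at which transcripts of Hao2, Cyp2c68 and Cyp2f2 made up an unusually large share of the RNA. They were chosen in each section as the top 10% of spots by the summed unique molecular identifiers (UMIs, counts of captured transcripts) of these 3 genes over all UMIs of the spot. Only spots with at least 500 UMIs were ranked, and spots that were also in the top 10% by the summed share of Atp12a, Tgm3, Fxyd4 and S100g were left out. This gave 207 of 2094 spots in section 1 and 216 of 2179 in section 2, or 423 of 4273 in all. The levels of the 7 genes in these spots follow from the choice and are given as a description. The lowest value taken was 457.7 CPM (a share of all UMIs of the spot or spot group, on the usual scale of the unit) in section 1 and 473.3 in section 2, and the highest value not taken was 457.2 and 471.8. Only 2 of the 209 top spots in section 1 and 2 of the 218 in section 2 were lost to the Atp12a-Tgm3 criterion.

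The study paired 10x droplet single-cell libraries with Visium sections of mouse intestine. Both large intestine sections came from animals of the C57BL/6 strain, were named as wild type, were cut at 10 µm from frozen intestinal tubes and were described as technical duplicates. The values of the sections are therefore given side by side, with 95% intervals that cover counting error only and with no test between groups. One single-cell library of large intestine, sorted from C57BL/6 and Lgr5-eGFP-ires-CreERT2 mice on the same background with live cells enriched for LGR5+ stem cells and for CD31+ PDPN+ LYVE1+ lymphatic endothelial cells, served as a separate view of the same genes. A spot is a small region that can hold several cells of different types, so fewer cells of a type and less RNA per cell cannot be told apart. The sections held 41257593 and 43833127 UMIs. Their barcode lists shared 1597 entries, as slides print 1 barcode set, and 24 barcodes were Hao2-Cyp2f2 spots in both.

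The colon is lined by crypts in which stem and dividing cells lie at the base and absorptive colonocytes and goblet cells mature towards the surface. Its proximal and distal ends differ in salt and water transport: carbonic anhydrase 2, encoded by Car2, is abundant in the proximal colon, and the epithelial sodium channel is a feature of the distal colon. Hao2 encodes a peroxisomal enzyme that oxidizes 2-hydroxy acids. Cyp2f2 and Cyp2c68 encode cytochrome P450 enzymes, and Cyp2f2 is best known from the club cells of the airway.

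The 3 genes of the rule lie on different chromosomes. By the RefSeq annotation of the GRCm38.p6 mouse assembly, Hao2 spans chr3:98874519-98895376, Cyp2c68 spans chr19:39688836-39741101 and Cyp2f2 spans chr7:27119955-27133660. Car2, at chr3:14886269-14900770, is the gene named as a further marker of these spots and was not used to choose them. Because the spots rest on these genes, the 250 bases before the RefSeq start of each are shown 5′ to 3′ on the gene's own strand, in lower case, with matches to searched motifs in capitals. The window of Hao2 is chr3:98893231-98893480 (minus strand), inside the span of the gene as RefSeq lists it. That of Cyp2c68 is chr19:39741102-39741351 (minus strand), and that of Cyp2f2 is chr7:27119705-27119954 (plus strand).
Hao2: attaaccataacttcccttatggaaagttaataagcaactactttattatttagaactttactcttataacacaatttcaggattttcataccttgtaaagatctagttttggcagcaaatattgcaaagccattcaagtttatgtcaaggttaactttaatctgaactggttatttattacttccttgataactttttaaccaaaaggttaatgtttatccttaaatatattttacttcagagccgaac
Cyp2c68: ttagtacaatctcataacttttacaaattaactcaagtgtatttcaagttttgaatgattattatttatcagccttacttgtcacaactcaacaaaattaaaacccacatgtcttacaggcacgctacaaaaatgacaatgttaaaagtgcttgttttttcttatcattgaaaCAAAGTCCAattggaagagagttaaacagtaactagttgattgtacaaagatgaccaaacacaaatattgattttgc
Cyp2f2: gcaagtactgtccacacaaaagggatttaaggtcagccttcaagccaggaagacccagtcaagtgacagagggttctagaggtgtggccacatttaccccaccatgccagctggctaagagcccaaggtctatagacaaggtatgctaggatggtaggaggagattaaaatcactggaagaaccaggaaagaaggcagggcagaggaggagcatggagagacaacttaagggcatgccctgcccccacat
The motifs searched on both strands were TTTATNG for CDX factors, CAAAGTCCA for HNF4, AGATAA for GATA factors and an HNF1 motif, all regulators of gut epithelium. In 27025 RefSeq windows of the same length, 10.2% held the CDX letters, 0.381% the HNF4 letters, 0.0629% the HNF1 letters and 10.3% the GATA letters. The Cyp2c68 window held 1 match, to the HNF4 letters, and the other windows held none of the 4.

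Hao2 supplied most of the signal that chose the spots. In section 1, Hao2 was at 458.4 CPM over the Hao2-Cyp2f2 spots and 119.2 CPM over all other spots, and in section 2 at 484.8 and 109.5 CPM. It made up 76.9% and 78.3% of the UMIs of the 3 genes in the chosen spots. Cyp2c68 was at 117 against 31.7 CPM in section 1 and 113 against 30.8 CPM in section 2. Cyp2f2 was rare, at 21.3 against 5.62 CPM and 21.1 against 6.07 CPM. A chosen spot held a median of 16 UMIs of the 3 genes in each section, from 1 to 37 in section 1 and from 1 to 42 in section 2. All 3 genes were seen together in 83 of the 207 spots of section 1 (40.1%) and in 70 of the 216 of section 2 (32.4%), against 5.2% and 5.5% of the other spots. The chosen spots were also deeper, with medians of 28185 and 28056 UMIs against 18280 and 18963 in the other spots.

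Each gene of the rule was also measured in spots chosen by the other 2 genes, which is a reading that its own counts did not shape. Against all other spots, Cyp2c68 was higher in spots chosen by Hao2 and Cyp2f2, at 87.3 against 36.7 CPM in section 1 and 88.6 against 34.7 CPM in section 2. Cyp2f2 was higher in spots chosen by Hao2 and Cyp2c68, with log2 ratios of 1.26 (0.90 to 1.62) and 1.31 (0.96 to 1.66). Hao2 was higher in spots chosen by the 2 cytochrome genes, at 0.96 (0.87 to 1.04) and 1.11 (1.03 to 1.19). The 3 transcripts therefore ranked the spots in a related way in both sections. When both sides were limited to epithelium-rich spots, defined as the upper 50% of a section's spots by the summed share of 8 pan-epithelial genes, the log2 ratio of Hao2 was smaller, 0.55 (0.46 to 0.65) and 0.70 (0.60 to 0.79). Without Hao2 the rule shared 93 of the 207 spots in section 1 (44.9%) and 97 of the 216 in section 2 (44.9%).

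The chosen spots lay mainly in epithelium. The epithelium-rich set held 179 of the 207 spots (86.5%) in section 1 and 182 of the 216 (84.3%) in section 2. Pan-epithelial transcripts, summed over the 8 genes, were at 16441 and 17085 CPM in the chosen spots against 12758 and 13136 CPM in the others. Transcripts of deeper layers were scarce. Smooth muscle genes were at least 2-fold lower for 8 of 8 listed genes, summing to 484 and 465 CPM against 3232 and 3143 CPM. Of all 11880 genes tested, which are those with at least 100 UMIs in the compared spots of each section, 7.37% were at least 2-fold lower in both sections. The lowest named genes included Vip, the neuropeptide of enteric neurons (2.23 against 47.2 CPM in section 1), Ptn, a heparin-binding growth factor (1.72 against 28.3 CPM), and Ascl2, the transcription factor of crypt stem cells (2 UMIs in the chosen spots of section 1). Enteric neuron and glia genes were lower for 6 of 6 tested, lymphatic endothelial genes for 4 of 4, and red blood cell genes for 4 of 4.

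Few genes were higher in the chosen spots than in all the others. At least 2-fold higher in both sections were 10 genes, 0.0842% of those tested, and 3 of these were the genes of the rule. Gm15401 and Gm47708, which have no gene name, were singled out after their values were seen. The other five were Gsta1, a glutathione transferase, Aqp4, a water channel, Slc6a14, an amino acid transporter, Il18, an epithelial cytokine, and Car2. Aqp4 was at 461.7 against 211.4 CPM in section 1 and 477.7 against 199.3 CPM in section 2. Slc6a14 was at 935.1 against 433.1 CPM and 959.0 against 425.4 CPM. Gsta1 was at 49.7 against 21.2 CPM and 52.0 against 20.9 CPM, and Il18 at 326.1 against 158.7 CPM and 340.2 against 166.5 CPM. Just under the threshold in 1 section or both lay Gsdmc3 and Gsdmc4, of the gasdermin C family, with log2 ratios of 0.97 and 1.19 and of 0.89 and 1.09, and Il1rn, the interleukin-1 receptor antagonist, at 0.90 and 1.04. The count of 10 was 2 after thinning each spot to 2000 UMIs and 6 without Hao2 in the rule, where the mean log2 ratio of Aqp4 was 0.32 in place of 1.19.

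Since much of that comparison set epithelium against muscle, the chosen spots were next read against other epithelium-rich spots, with the Atp12a-Tgm3 spots left out of the reference. In this setting 4 of 9653 genes (0.0414%) were at least 2-fold higher in both sections: the 3 genes of the rule and Rims4, a member of the RIM family of synaptic proteins. Rims4 rested on few molecules, 49 and 46 UMIs in the chosen spots, with log2 ratios of 1.02 (0.45 to 1.57) and 1.25 (0.66 to 1.83). The count of 4 was 14 with either section left out, 10 with the top 20% of spots and 1 after thinning to 2000 UMIs. The next named genes stayed near but under 2-fold in at least 1 section. They included enzymes of conjugation and acid metabolism, such as the sulfotransferase Sult1a1 (294.0 against 153.6 CPM and 299.2 against 151.6 CPM) and the acyl-CoA synthetase Acsm3 (128.6 against 67.4 CPM and 116.7 against 60.2 CPM). Kcne3, a potassium channel subunit, was at 178.0 against 99.3 CPM and 177.0 against 89.0 CPM. After thinning to 2000 UMIs the mean log2 ratio of Sult1a1 was 0.41 in place of 0.96, and that of Kcne3 was 0.39 in place of 0.92. Ephx4, of the epoxide hydrolase family, had log2 ratios of 1.34 (0.76 to 1.90) and 0.97 (0.38 to 1.54). Aqp4 had 0.63 (0.56 to 0.70) and 0.77 (0.70 to 0.84), and its mean of 0.70 was -0.19 when Hao2 was taken out of the rule.

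Car2 was among the genes that tracked the 3 rule genes most closely. Over all spots, its Spearman correlation with the summed share of the rule genes was 0.63 in section 1 and 0.63 in section 2. Correlations were computed for 5334 genes, and Car2 was the highest once rule, mitochondrial, ribosomal protein, sex-linked and unnamed genes were left out. Hao2, itself part of the share, was at 0.93 and 0.93. Over epithelium-rich spots Car2 was at 0.65 and 0.65. With the same kinds of genes left out of 3201, it was first when ranked by the lower of the sections. Tpt1, a widely expressed growth-related gene, was close to it there, at 0.64 and 0.67, and above it in section 2. Gene and share come from the same spot and library, so depth and the amount of epithelium in a spot enter both. In epithelium-rich chosen spots of section 1, Car2 ran from 265.9 through a median of 1408 to 2794 CPM, and in the other epithelium-rich spots from 0 through 634.5 to 2684 CPM. In section 2 the lowest, median and highest values were 462.1, 1383 and 2672 CPM against 0, 620.6 and 2318 CPM. The medians were well apart while the ranges overlapped almost wholly. The log2 ratio of summed CPM was 0.79 (0.75 to 0.84) and 0.87 (0.83 to 0.91), with a mean of 0.83, which is short of 2-fold. It was 0.68 over spots with at least 20000 UMIs and 0.70 over spots with fewer smooth muscle UMIs than the section's median, both chosen after seeing the data.

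**Figure D1:**
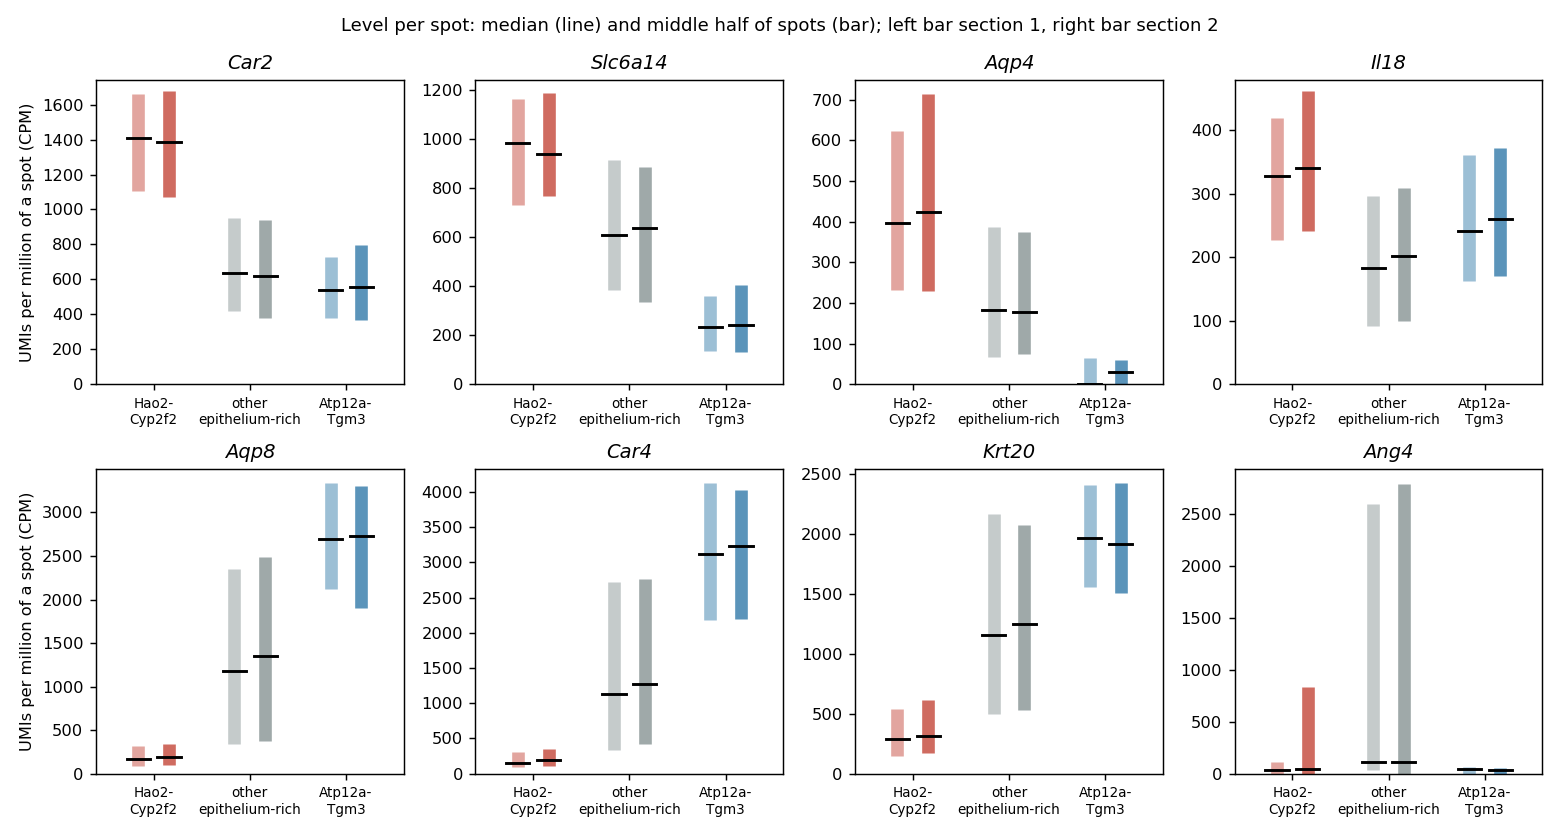
Level of 8 genes per spot, in CPM of the spot, for epithelium-rich Hao2-Cyp2f2 spots, other epithelium-rich spots and Atp12a-Tgm3 spots; bars span the middle 50% of spots and lines mark medians, with section 1 left and section 2 right in each pair. Car2 medians lie at 1408 and 1383 CPM in the Hao2-Cyp2f2 spots, above the bars of both other groups, while Aqp8, Car4 and Krt20 have their lowest medians there.

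The genes of the colonocyte surface went the other way. Of 10 listed surface genes, 7 were at least 2-fold lower than in other epithelium-rich spots in both sections, against 2.92% of all 9653 genes: Krt20, Aqp8, Car4, Slc26a3, Guca2a, Ceacam20 and Cyp2c55. Their list median was -1.70 in section 1 and -1.64 in section 2, against 0.04 and 0.04 over all genes tested. Aqp8, the water channel of surface colonocytes, ran from 0 through a median of 164.2 to 3226 CPM in the epithelium-rich chosen spots of section 1 and from 0 through 1178 to 6111 CPM in the reference. Car4, the membrane-bound carbonic anhydrase, was at 259.7 against 1465 CPM in section 1 and 303.5 against 1630 CPM in section 2. Krt20, a keratin of mature surface cells, was at 385.9 against 1321 CPM and 432.8 against 1390 CPM. After each spot was thinned to 2000 UMIs and the rule applied again, the mean log2 ratio was -1.47 in place of -2.47 for Aqp8, -1.199 in place of -2.46 for Car4, and -0.82 in place of -1.73 for Krt20, which was then short of 2-fold. The 2 carbonic anhydrases Car2 and Car4 thus differed from the reference in opposite directions in the same spots.

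Several of the lowest genes in this comparison were barely present in the chosen spots. Clca4a was at 24.7 against 358.6 CPM in section 1 and 36.5 against 388.3 CPM in section 2. Ly6m was at 26.1 against 421.3 CPM and 56.6 against 487.9 CPM. Ido1, a tryptophan-degrading enzyme, was at 3.48 against 25.9 CPM, and Cldn4, a tight junction protein, at 3.28 against 23.6 CPM in section 1. Defence genes were lower in part: 5 of 11 listed antimicrobial genes passed 2-fold, where 2.92% of all genes did, namely the serum amyloids Saa1 and Saa3, the nitric oxide synthase Nos2, and the oxidase Duox2 with its maturation factor Duoxa2. Saa1 was at 1793 against 6464 CPM in section 1 and 2133 against 7174 CPM in section 2. Smooth muscle genes were again lower for 8 of 8, with Myh11 at 41.9 against 157.2 CPM and 35.2 against 152.9 CPM, and haemoglobin genes for 4 of 4. These spots thus differed from the reference in non-epithelial content as well. The part that this content had in the gene differences was tested only by the restriction on smooth muscle UMIs given above.

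**Figure D2:**
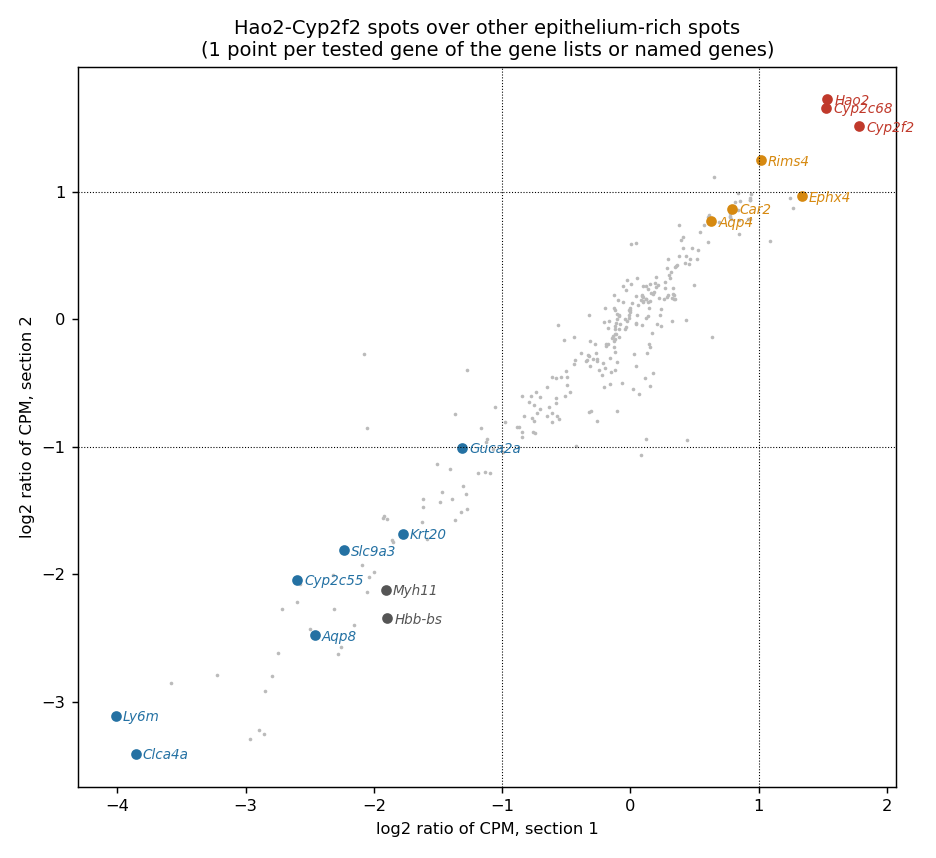
Log2 ratio of CPM between Hao2-Cyp2f2 spots and other epithelium-rich spots in section 1 (horizontal) and section 2 (vertical), 1 point per tested gene of the gene lists or the named genes, with dotted lines at 2-fold. Only Rims4 and the 3 genes of the rule lie beyond the upper lines in both sections, whereas surface genes such as Aqp8 (-2.46 and -2.48) and Krt20 (-1.78 and -1.68) lie far below the lower ones.

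The change along the ranking was gradual and differed in shape between the groups of genes. When all spots of section 1 were ordered into 10 equal bins by the share of the rule genes, Car2 was at 362.9 CPM in bin 1, the lowest, 525.0 CPM in bin 5 and 1362 CPM in bin 10. In section 2 the same bins held 355.7, 591.1 and 1367 CPM. Slc6a14 went from 195.3 to 935.0 CPM and Aqp4 from 102.9 to 458.8 CPM in section 1. Aqp8 was between 1013 and 1350 CPM in each of the lowest 7 bins of section 1, and at 241.9 CPM in the highest. Tgm3 was nearly level, at 462.7 CPM in the lowest and 503.8 CPM in the highest bin. Rule genes were absent from 22.8% of spots in each section, so the lowest 2 bins are not ordered among themselves.

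**Figure D3:**
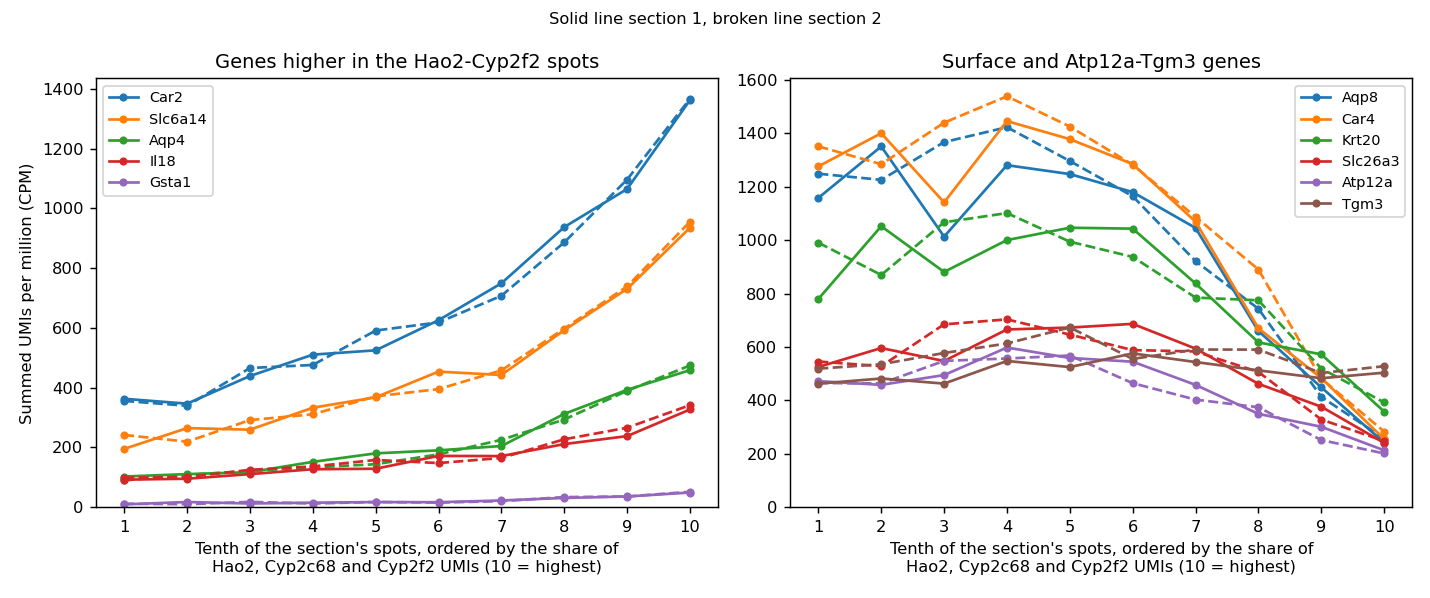
Summed CPM of selected genes in 10 equal bins of a section's spots, ordered by the share of Hao2, Cyp2c68 and Cyp2f2 UMIs; solid lines are section 1 and broken lines section 2. Car2 reaches 1362 and 1367 CPM in the highest bin, and Aqp8 drops to 241.9 and 257.0 CPM there.

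The rule was framed as a test of proximal-type identity, and the listed regional genes did not move together. Of the 4 proximal colon genes, none was at least 2-fold higher than in other epithelium-rich spots, where 0.0414% of all genes were. Car2 was the highest, Fut2, a fucosyltransferase, had log2 ratios of -0.10 (-0.23 to 0.02) and 0.04 (-0.09 to 0.16), and Ang4, an antimicrobial ribonuclease, had -1.05 and -0.69. Slc9a3, the sodium-hydrogen exchanger of absorptive cells, was at 39.96 against 188.1 CPM in section 1 and 58.5 against 205.5 CPM in section 2, at least 2-fold lower. Ang4 was unevenly spread: its median over the epithelium-rich chosen spots was 40.6 CPM in section 1 while its highest spot reached 10606 CPM. Its mean log2 ratio of -0.87 was -4.17 when Hao2 was taken out of the rule. Of 7 tested genes of the distal sodium uptake list, 2 were 2-fold lower, where 2.92% of all genes were, and none was higher. They were Sgk1, a kinase of the sodium channel, and Slc15a1, a peptide transporter. The sodium channel subunit Scnn1a was at 53.7 against 80.2 CPM and 54.0 against 85.0 CPM. Slc5a8, a sodium-coupled transporter of short-chain fatty acids, was at 491.7 against 398.7 CPM and 470.1 against 369 CPM.

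Genes that mark position along the gut were read against the same reference. None of 8 tested posterior Hox genes passed 2-fold in either direction, where 0.0414% of all genes were higher and 2.92% lower, so the count alone sets the list apart from no other. Hoxb13, the most posterior of its cluster, was at 417.0 against 345.0 CPM in section 1 and 416.9 against 351.3 CPM in section 2, with log2 ratios of 0.27 (0.20 to 0.35) and 0.25 (0.17 to 0.32). Cdx2, a homeobox factor of the whole intestine, had log2 ratios of -0.44 (-0.63 to -0.26) and -0.13 (-0.30 to 0.03). Because of these values the spots are called here by their leading genes and not by a region of the colon.

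The enzyme classes of the defining genes were read in the same way, where 0.0414% of all genes were at least 2-fold higher and 2.92% at least 2-fold lower. Among 28 further P450 and P450 partner genes, 18 were tested against other epithelium-rich spots, of which 4 were at least 2-fold lower, Cyp2c55, Cyp2c65, Cyp2d10 and Cyp2d12, and none was higher. Cyp2c55 was at 24.5 against 148.8 CPM in section 1 and 37.1 against 152.9 CPM in section 2, although it belongs to the same family as Cyp2c68. Of 17 tested peroxisomal genes, the housing of the Hao2 enzyme, none was at least 2-fold higher. The list medians were 0.10 and 0.14, near the 0.04 and 0.04 of all genes. Among 33 tested conjugation and other xenobiotic genes, 2 were lower, the carboxylesterase Ces2c and the exporter Abcg2. None of 22 genes of mitochondrial fatty acid oxidation and ketogenesis passed 2-fold.

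Crypt, secretory and immune lists gave a mixed picture against other epithelium-rich spots. None of 9 cycling genes and none of 9 goblet genes passed 2-fold, and 1 of 6 tested crypt stem genes, Prom1, was lower, where 0.0414% of all genes were higher and 2.92% lower. Muc2, the main mucin, was at 2560 against 4163 CPM in section 1 and 2773 against 4225 CPM in section 2. Lgr5, the receptor of crypt stem cells, had 1 UMI in the epithelium-rich chosen spots of each section, and Ascl2 had 2 and 3. Counts of the reference are not given here, so these low counts alone do not set the chosen spots apart. The crypt stem list had medians of -0.34 and -0.22, against 0.04 and 0.04 over all genes tested. Antigen-presenting (MHC class II) genes were lower by less than 2-fold, with list medians of -0.56 and -0.73. Plasma cell transcripts summed to 40061 against 33658 CPM and 33732 against 31432 CPM.

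**Figure D4:**
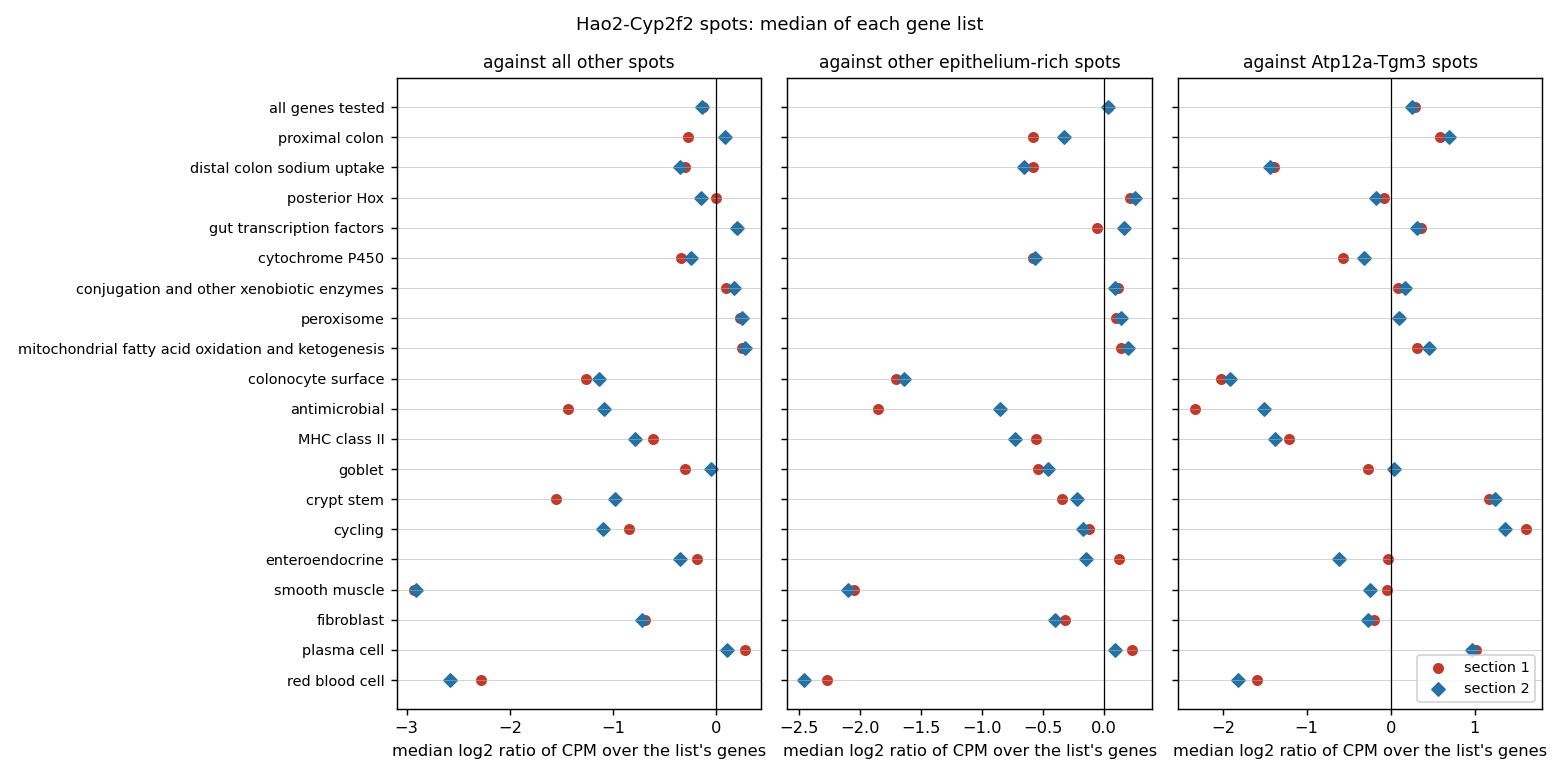
Median log2 ratio of CPM over the tested genes of each list, and over all genes tested in the top row, in Hao2-Cyp2f2 spots against all other spots, other epithelium-rich spots and Atp12a-Tgm3 spots; circles are section 1 and diamonds section 2. The colonocyte surface list lies at -1.70 and -1.64 in the middle panel, and smooth muscle lies near 0 (-0.04 and -0.25) only in the right panel.

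The sharpest contrast was with the Atp12a-Tgm3 spots, the top 10% by the 4 genes whose high spots the rule removes, less those shared with the other ranking (207 and 216 spots). Atp12a encodes the colonic proton-potassium pump and Tgm3 a transglutaminase. Since the rule used this program, the following is a description. Of 7573 genes tested, 844 were at least 2-fold higher in the Hao2-Cyp2f2 spots (11.1%) and 475 at least 2-fold lower (6.27%). After thinning to 2000 UMIs per spot, which also redraws the chosen spots, 123 were higher. Here smooth muscle content was alike, 484 against 508 CPM in section 1 and 465 against 528 CPM in section 2, and none of 7 tested muscle genes passed 2-fold.

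Of 4 proximal colon genes, 2 were higher in this contrast, where 11.1% of all genes were higher and 6.27% lower: Car2 (1365 against 611 CPM and 1364 against 640 CPM) and Ang4 (736.0 against 43.1 CPM and 887.2 against 35.0 CPM). The mean log2 ratio of Ang4 was 4.38, and 1.27 when Hao2 was taken out of the rule. Among 7 tested genes of the distal sodium uptake list, 4 were lower: Scnn1a and Scnn1b of the sodium channel, its kinase Sgk1, and the peptide transporter Slc15a1. Scnn1a was at 51.6 against 134.8 CPM and 50.5 against 136.9 CPM. Aqp4 was at 461.7 against 39.2 CPM and 477.7 against 44.6 CPM, while its relative Aqp8 was at 237.2 against 2668 CPM and 254.6 against 2632 CPM. Cftr, the chloride channel of crypt secretion, was at 43.8 against 6.58 CPM and 51.0 against 5.33 CPM.

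Metabolic lists were mixed against the Atp12a-Tgm3 spots, and most cycling genes were higher, where 11.1% of all genes were higher and 6.27% lower. Of 22 genes of fatty acid oxidation and ketogenesis, 6 were at least 2-fold higher, the acyl-CoA synthetase Acsm3 among them, and 1 was at least 2-fold lower, the mitochondrial carnitine carrier Slc25a20. Pla2g4c, a phospholipase, was the highest named gene, at 45.0 against 1.95 CPM in section 1 and 41.0 against 1.71 CPM in section 2. Cycling genes were higher for 6 of 7 tested, among them Mki67 at 43.5 against 14.4 CPM and 36.0 against 15.4 CPM. Of xenobiotic genes, 8 of 29 were higher, Sult1a1 and Gsta1 among them, and 6 were lower. Of 17 tested P450 genes, 1 was higher, Cyp2d26, and 6 were lower, with list medians of -0.57 and -0.32. Of 7 tested posterior Hox genes, 1 was lower, Hoxd10 (7.74 against 20.2 CPM and 8.12 against 18.1 CPM), and the mean log2 ratios of the list ran from -1.27 to 1.18. Hoxa7 was the 1 anterior Hox gene with enough UMIs, and it was higher (24.9 against 10.5 CPM and 31.3 against 7.89 CPM).

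The lowest named genes in this contrast included Ifit1bl1, Ido1 and Ubd. Ifit1bl1, an interferon-induced gene, was at 107.4 against 1862 CPM in section 1 and 100.8 against 1763 CPM in section 2. Ido1 was at 3.09 against 61.4 CPM and 2.77 against 67.6 CPM, and Ubd, a ubiquitin-like modifier, at 4.47 against 91.6 CPM and 2.07 against 106.0 CPM. MHC class II genes were lower for 5 of 7, where 6.27% of all genes were. Antimicrobial genes were split, where 11.1% of all genes were higher, with Reg3b, Ang4 and Retnlb higher and Lypd8, Saa1, Saa3, Nos2, Duox2 and Duoxa2 lower. The mean log2 ratio of Retnlb was 3.31, and 0.83 when Hao2 was taken out of the rule.

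The single-cell library of large intestine, which the rule did not use, showed both programs cell by cell. Among 5882 cells in clusters made without the 7 genes and Car2, 3 epithelial clusters held most of the Hao2 UMIs. Hao2 was highest in cluster 9 (216 cells), at 520.1 CPM (501.4 to 539.2), and this cluster also had Tgm3, Atp12a and Fxyd4 among its leading genes, with Tgm3 at 611.4 and Atp12a at 161.9 CPM. It had 7 markers of the colonocyte surface and is surface colonocyte-like. Cluster 16 (169 cells), led by Alpi, Apoa1 and Slc10a2, had Hao2 at 344.2 CPM (325.4 to 363.8) and Tgm3 at 229.5 CPM. Its 8 markers gave it a small intestinal enterocyte-like name, but its leading genes also included Cyp2c55 of the surface list. Over the small intestine cell library, Hao2 was at 1.10 CPM and Car2 at 4.47 CPM, against 724.7 CPM of Car2 in cluster 16. The name is thus a label from a marker list only. The unnamed cluster 6 (306 cells), led by Ces1g, Cwh43 and Gsdmc2, had Hao2 at 318.0 CPM (306.9 to 329.4) with Tgm3 at 2.6 and Atp12a at 0.3 CPM. These clusters held 33.3%, 14.2% and 35.1% of the Hao2 UMIs of the kept cells in 3.67%, 2.87% and 5.20% of those cells. The order of the highest clusters was not settled: the log2 ratio of the highest named or numbered class over the next was 0.60, and 0.0045 when cells with over 10% mitochondrial UMIs were removed. No Hao2 UMI was seen in B cell-like cells, 0 of 107 cells thinned to 2000 UMIs, where a floor of 3 counts allows a share of cells with a UMI of up to 2.80%.

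The 3 rule genes were unevenly spread over these clusters. Cyp2c68 was at 95.7 CPM in cluster 9 but at 4.10 CPM in cluster 6, and Cyp2f2 was at 14.9 and 0.31 CPM. Of 50 cells thinned to 2000 UMIs in these clusters that had a Cyp2c68 UMI, 35 also had a Hao2 UMI (70%, 55.4 to 82.1), against 37.1% (33.2 to 41.1) of the 598 without. The clusters differ in both genes. Within cluster 9 alone, Cyp2c68 had a log2 ratio of 0.57 (-0.39 to 1.57) between cells with and without Hao2, an interval that included 0. Within clusters 6 and 16 the same ratio was 1.93 and 2.58. The intervals excluded 0 there but rested on 7 against 1 UMIs in each cluster. The highest level of Cyp2c68 lay in 41 enteroendocrine-like cells, at 128.1 CPM (99.1 to 162.9) from 66 UMIs. Car2 was high in each of the 3 clusters, at 1176, 724.7 and 1033 CPM in clusters 9, 16 and 6. Ang4 was at 6.5, 28.3 and 7.9 CPM in them and at 1031 CPM in the goblet-like cluster 13. When the spot rule's ranking was applied to the cells, 226 of the 588 top cells by the rule genes were also in the top 10% by the Atp12a-Tgm3 genes (38.4%). Of these 226 cells, 80 were in cluster 9 and 77 in cluster 6. In cluster 6, S100g was at 162.4 CPM while Fxyd4 was at 0.41 CPM, so S100g supplied nearly all of the second program there. S100g was at 45.5 CPM in cluster 9 and 246.3 CPM in cluster 16. The same overlap was 2 of 209 and 2 of 218 among spots.

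Within cluster 9, cells were thinned to 2000 UMIs and split by whether a Hao2 UMI remained, giving 101 cells with and 96 without. The surface genes were lower in the cells with Hao2, as in the spots: Aqp8 at 79.2 against 395.8 CPM (log2 ratio -2.32, -3.20 to -1.53), Car4 at 163.4 against 869.8 CPM (-2.41) and Krt20 at 207.9 against 604.2 CPM (-1.54, -2.08 to -1.02). Aqp4 was higher, at 707.9 against 333.3 CPM (1.09, 0.65 to 1.54), and so was Car2, at 1347 against 890.6 CPM (0.60, 0.32 to 0.88). Of the Atp12a-Tgm3 genes, 3 had intervals that included 0: Tgm3 was at 703.0 against 781.3 CPM (-0.15, -0.49 to 0.19), Atp12a at 133.7 against 192.7 CPM (-0.53, -1.30 to 0.23) and Fxyd4 at 123.8 against 130.2 CPM. S100g was lower, at 24.8 against 93.8 CPM (-1.92, -3.71 to -0.44), from 5 and 18 UMIs. In cluster 16, Aqp8 was at 46.5 against 440.9 CPM in the 43 cells with and the 110 without Hao2, and Aqp4 at 732.6 against 254.5 CPM, while Krt20 was at 1360 against 1568 CPM (-0.20, -0.52 to 0.10). The split on Hao2 gave the same order for Aqp4, Car2, Aqp8 and Car4 in clusters 9 and 16 as in the spots. Gsdmc4 was also higher, with 0.81 (0.49 to 1.14) in cluster 9 and 1.44 (0.85 to 2.03) in cluster 16. The other genes that were higher in the spots had intervals that included 0 in these clusters: in cluster 9 Slc6a14 had 0.40 (-0.12 to 0.93), Il18 0.10 (-0.33 to 0.54) and Gsta1 -0.73 (-2.33 to 0.77). In cluster 16 they had -0.38 (-1.13 to 0.33), 0.80 (-0.13 to 1.69) and 0.03 (-1.19 to 1.14). In cluster 6 (113 cells with and 185 without Hao2), Car2 had 0.57 (0.34 to 0.81), Gsdmc4 1.17 and Il18 1.43 (0.41 to 2.50). Aqp4 had 0.43 (-0.24 to 1.09) in that cluster, with an interval that included 0. The surface genes were not lower with Hao2 there: Slc26a3 had 1.16 (-0.06 to 2.43), Krt20 1.30 (-0.78 to 3.56) and Car4 0.20 (-1.43 to 1.74), from few UMIs each (15 and 11 for Slc26a3).

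A second split of cluster 9, by a UMI of Cyp2c68 or Cyp2f2 (40 cells with and 157 without), gave only part of the same order. Aqp8 (-2.49, -4.39 to -1.08), Car4 (-1.12, -1.85 to -0.46) and Krt20 (-1.91) were again lower. Aqp4 had 0.17 (-0.34 to 0.65) and Car2 0.14 (-0.20 to 0.47), with intervals that included 0. Tgm3 was lower, at -0.64 (-1.15 to -0.16), and so was Atp12a, at -1.30 (-2.80 to -0.09). In clusters 6 and 16 this split left 7 cells with a UMI each. From these few cells, Aqp4 had 2.69 (1.62 to 3.61) and Car2 1.06 (0.46 to 1.59) in cluster 6, unlike cluster 9. In cluster 16 they had 0.77 (-0.40 to 1.75) and 0.78 (-0.09 to 1.54), with intervals that included 0.

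**Figure D5:**
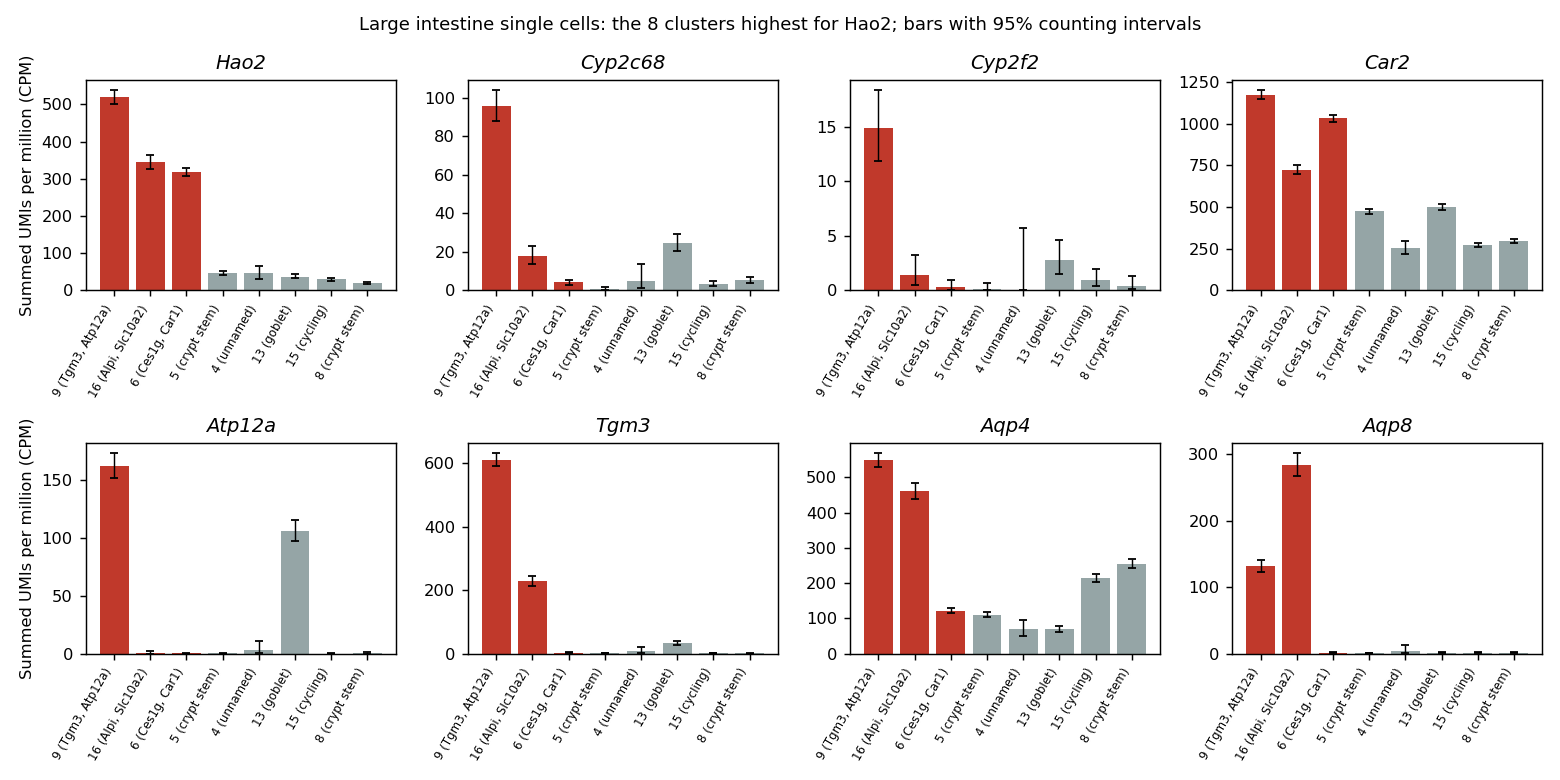
Summed CPM of 8 genes in the 8 single-cell clusters of large intestine with the highest Hao2, with 95% counting intervals; the 3 highest clusters are red and carry 2 of their genes in the label. Hao2 (520.1 CPM), Tgm3 (611.4 CPM) and Atp12a (161.9 CPM) all peak in cluster 9, whereas cluster 6 has Hao2 at 318.0 CPM with almost no Tgm3.

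In small intestine, Hao2 and Cyp2f2 were near zero and Cyp2c68 was not. Hao2 was at 1.31 and 1.26 CPM in the 2 small intestine sections, made from the same strain, against 167 and 159 CPM over the whole large intestine sections. Cyp2f2 had 3 UMIs in one small intestine section and 0 in the other (0 to 0.123 CPM). Cyp2c68 differed less, at 7.02 and 7.11 CPM against 43.7 and 41.7 CPM. In single-cell libraries the order of Cyp2c68 was the other way, with 13.4 CPM in small intestine cells, 10.9 and 21.1 CPM in small intestinal organoids cultured alone and in coculture, and 8.06 CPM in large intestine cells. These values cover whole libraries, and the large intestine one was enriched for LGR5+ and lymphatic cells. Within it, Cyp2c68 was at 2.70 CPM in crypt stem-like cells and 95.7 CPM in cluster 9. The part of the cell mix in this order was not tested. Car2 was at 8.87 and 11.6 CPM in the small intestine sections against 759 and 744 CPM in the large intestine sections.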

How the data were processed

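Counts of UMIs per gene and barcode were used as deposited; per the file headers they came from Cell Ranger 6.0.1 (cells) and Space Ranger 1.2.1 (Visium). The submitters' processing notes name mm10. Of 32285 gene IDs, 32158 matched the reference table. Spot positions were not used here, and tissue-level filters are not given in the sources used here. UMIs were summed per section and spot group, scaled to CPM and compared as log2 ratios, with counts under 3 set to 3. Genes with at least 100 UMIs in both groups together of each section were tested, and a gene passed when at least 2-fold apart in both sections. Intervals are exact Poisson, exact ratio or Clopper-Pearson at 95% and cover counting error only.

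Barcodes needed 500 detected genes or more, and those over 20% mitochondrial were dropped; 306 likely doublets were removed by Scrublet rank (0.8% per 1000 cells), and clusters came from scanpy 1.11.5 and leidenalg 0.10.2 (2000 genes, 30 components, 15 neighbours, resolution 1). Clusters took "-like" names from at least 3 markers. Named genes were the 20 highest and 10 lowest of each comparison (10 and 10 for the Atp12a-Tgm3 spots) by the less extreme section, genes of the 37 lists, and the 10 genes most correlated with the rule genes; rule, mitochondrial, ribosomal protein, sex-linked and unnamed genes were left out. The members and lists were chosen with earlier results of these data known. The calculation was tested on simulated data. Results for some genes are not reported here.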

Additional observations from a re-analysis of the deposited data

How the results depend on the processing

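No paired analysis was possible because the sections are technical duplicates and no test was made. The number of genes at least 2-fold higher than in all other spots (10) became 17 with the top 20% of spots, 6 without Hao2 in the rule, 19 with the mean of each spot's CPM, 2 after thinning to 2000 UMIs, 17 with a minimum of 30 UMIs per gene, and 6 in spots with at least 20000 UMIs or with few smooth muscle UMIs. With a section left out it ranged from 20 to 29. Against other epithelium-rich spots (4) it became 10 with the top 20%, 2 without Cyp2c68, 8 without mitochondrial and ribosomal protein genes, 1 after thinning, 11 and 2 with minimums of 30 and 300 UMIs, 13 with Atp12a-Tgm3 spots in the reference, and 14 with either section left out. Against Atp12a-Tgm3 spots (844) it became 123 after thinning, which also redraws the chosen spots, and 1299 and 435 with minimums of 30 and 300 UMIs. The mean Car2 log2 ratio (0.83) was 0.95 with the top 20%, 0.76 without Hao2, 0.71 without Cyp2c68, 0.93 as mean CPM, 0.90 without mitochondrial and ribosomal protein genes, 0.55 after thinning, 0.89 with Atp12a-Tgm3 spots in the reference, 0.68 in deep spots and 0.70 with few smooth muscle UMIs.

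The Hao2 log2 ratio of the highest single-cell class over the next (0.60) was 0.0045 with at most 10% and 0.54 with at most 40% mitochondrial UMIs, 0.038 with doublets kept, and 0.91 and 1.31 at resolutions 0.5 and 2, so the order of the top classes is not settled. Against other epithelium-rich spots, Aqp4 (0.70) was -0.19 without Hao2 in the rule, the 1 reversal among 288 values of 18 single-gene results; the cause was not tested. For each gene of low count, and for Cyp2f2 throughout, depth limits the reading.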
